A study of Mus musculus with 26 samples.

Results

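The 10 genes described here are immediate early genes of the AP-1 and EGR families with 2 companions, followed through every group of a study of PRMT5 inhibitors in mouse tumour cells and T cells. They were chosen by name, with earlier results of these data known. Among them are the FOS family genes Fos, Fosb and Fosl1 and the JUN family genes Jun and Junb. The others are the zinc finger genes Egr1, Egr2 and Egr3, and Ier2 and Dusp1. All 10 were found among the 56562 gene identifiers of the MC38 table and of the T cell table, and all 10 passed the filter on low counts in both, among 14835 and 13753 genes tested. Their share of all counts ran from 0.0562% to 0.292% per library in the tumour line, and T cell libraries gave 0.0518% to 0.0865%.

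Immediate early genes are transcribed within minutes of a growth factor, serum, stress or antigen receptor signal, without new protein synthesis, because the factors that drive them are already in the cell and are switched on by ERK and other MAP kinases. FOS and JUN proteins pair into AP-1, which binds DNA and drives genes of growth, invasion and inflammation, while EGR proteins bind GC-rich sites through zinc fingers. In tumour cells their level follows signalling through RAS and ERK, and in T cells it follows the T cell receptor, where EGR2 and EGR3 also restrain activation.

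Sequencing of poly(A) RNA covered MC38/gp100, a mouse colon adenocarcinoma line made to carry gp100, an antigen of melanoma. It also covered pmel-1 T cells, from mice with a transgenic T cell receptor for that antigen. The 6 MC38 groups came from wild-type (WT) cells and from cells with Mtap knocked out (KO), both of them given DMSO, 0.5 µM GSK3326595 or 0.5 µM MRTX1719 for 5 days. The 3 T cell groups, labelled WT and maintained with IL-2, had the same treatments for 3 days. Each group has 3 libraries, except WT cells with MRTX1719, which have 2 (replicates 1 and 3). Mtap encodes the enzyme that clears methylthioadenosine (MTA). GSK3326595 inhibits the arginine methyltransferase PRMT5, and MRTX1719 inhibits PRMT5 together with bound MTA. In replicates 2 and 3 the last digit of GSK3326595 differs in the treatment label but not in the titles, which were followed. No label used here says whether the KO line is a single clone, and none names an acute stimulus before lysis.

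Library totals were 19302768 to 27786226 counts for the tumour line, and T cells had 13813406 to 20772699. Mtap RNA lay at 388 to 421 CPM (each library's counts scaled to a common total) in the 8 WT libraries and at 203 to 276 CPM in the 9 KO libraries, so it was lower (log2 fold change under DMSO -0.53, adjusted p = 1.65e-49) but not absent. Of the labelled cell types, T cells held all 9 T cell markers at a sum of 4091 to 5529 CPM, with CD4 T cell markers at 1.0 to 1.85 CPM. In MC38 cells 6 epithelial markers summed to only 14.5 to 62.6 CPM, with Epcam at 0 counts in 5 of the 6 groups, and 8 fibroblast and endothelial markers to 1584 to 3897 CPM. The labels number the replicates without saying whether each is its own culture or animal. The p-values therefore rest on library-to-library spread alone, and that spread may be technical.

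The sequence just upstream of these genes was searched for elements through which immediate early genes are classically switched on. The search covered only the members found in the RefSeq promoter table (build GRCm38.p6), and not every element was found in each. That table held Fos, Fosb, Jun, Junb, Dusp1 and 5 windows for Egr2, 6 of the 10 members. The searched windows run from 250 bases before to 50 after a start. Searched on both strands were the CArG box bound by SRF, the cyclic AMP response element TGACGTCA and its core TGACG (which lies within it), the AP-1 element TGACTCA or TGAGTCA, the ETS core CCGGAA, the EGR sites GCGGGGGCG and GCGTGGGCG, and TATAAA. The lines read 5′ to 3′ on the gene's strand with matches in capitals, and bases are counted back from the start at -1. They cover -150 to -1, less annotated exon sequence, and for Egr2 a stretch of 30 bases from each of 2 windows, where CGTCA is TGACG on the other strand.
Fos, chr12:85473740-85473889, plus strand: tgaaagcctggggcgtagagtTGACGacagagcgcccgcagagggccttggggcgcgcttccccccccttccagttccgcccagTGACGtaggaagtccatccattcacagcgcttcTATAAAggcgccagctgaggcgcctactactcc
Fosb, chr7:19310052-19310195, minus strand: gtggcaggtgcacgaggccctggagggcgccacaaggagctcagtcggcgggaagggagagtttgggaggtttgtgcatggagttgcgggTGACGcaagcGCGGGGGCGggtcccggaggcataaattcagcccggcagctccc
Jun, chr4:95052223-95052372, minus strand: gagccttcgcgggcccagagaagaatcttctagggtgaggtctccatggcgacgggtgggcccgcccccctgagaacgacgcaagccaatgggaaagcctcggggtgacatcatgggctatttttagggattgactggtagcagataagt
Junb, chr8:84978749-84978898, minus strand: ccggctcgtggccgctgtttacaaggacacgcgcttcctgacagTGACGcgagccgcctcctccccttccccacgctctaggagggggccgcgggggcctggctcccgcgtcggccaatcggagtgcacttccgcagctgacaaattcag
Egr2, window 2, chr10:67537494-67537523, plus strand: CCTTTTTTGGaaagtctcggagaaCCGGAA
Egr2, window 3, chr10:67537794-67537823, plus strand: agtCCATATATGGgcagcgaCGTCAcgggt
Dusp1, chr17:26508520-26508622, minus strand: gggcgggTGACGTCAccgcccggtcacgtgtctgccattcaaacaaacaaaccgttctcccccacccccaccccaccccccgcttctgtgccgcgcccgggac

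A CArG box stood in 4 of the 5 Egr2 windows, 3 of which hold the same box, and in 1.63% of all 32851 windows of the table. The core TGACG stood in windows of 5 of the 6 members, Jun being the exception, and in 20.8% of all windows. In Fos it began at -129 and at -66, with TATAAA at -33. Dusp1 held the full TGACGTCA at -143, an element found in 1.79% of windows, and Fosb an EGR site at -50, found in 3.47%. No letters of the AP-1 element were matched in the windows of these members (5.2% of all windows), and Jun had no match to any of the searched letters. These matches are descriptions of exact letters within the windows. They do not show that a factor binds there, and variant or more distant elements were not searched.

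The first comparison asked how the KO line differed from the WT line with DMSO alone. All 10 genes were lower in KO cells, each at least 2-fold, against 37.0% of genes tested called lower, 36.2% called higher and 6.43% called at least 2-fold lower. The 3 EGR genes lay between 4.28-fold and 19.0-fold lower, Fos and Fosb 5.18-fold and 6.18-fold, Ier2 4.16-fold, and Fosl1, Jun, Junb and Dusp1 2.02-fold to 2.58-fold. A smaller share of responding cells and less RNA per cell cannot be told apart in bulk libraries. The median log2 fold change of the 10 genes was -2.08, beside 0.01 over all genes tested.

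Of the EGR genes, which encode zinc finger activators (Egr1 is ENSMUSG00000038418.8, Egr2 ENSMUSG00000037868.16 and Egr3 ENSMUSG00000033730.5), Egr1 stood at 1121, 1169 and 1124 CPM in the WT libraries and at 269, 268 and 262 CPM in the KO libraries. The groups were far apart, with little spread within either (log2 fold change -2.10, 95% interval -2.14 to -2.06, adjusted p = 4.34e-126). Egr3 was at 32.8, 31.0 and 31.4 CPM in WT libraries and at 1.64, 1.70 and 1.66 CPM in KO libraries. Its log2 fold change of -4.25 (SE 0.0983, adjusted p = 1.95e-79) was the 61st lowest of 14835, on 114 counts over the 3 KO libraries. Egr2 went from 24.1, 21.7 and 22.6 CPM to 2.36, 1.70 and 1.82 CPM (-3.55, SE 0.104, adjusted p = 6.98e-67). In each of these genes the highest KO library lay below the lowest WT library, as in 37.8% of genes tested.

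Among the AP-1 genes (Fos ENSMUSG00000021250.14, Fosb ENSMUSG00000003545.4, Fosl1 ENSMUSG00000024912.7, Jun ENSMUSG00000052684.5 and Junb ENSMUSG00000052837.8), the FOS subunits Fos and Fosb had larger falls than the JUN subunits. Fos was at 119, 119 and 120.1 CPM in WT libraries and at 23.9, 23.5 and 21.8 CPM in KO libraries (-2.37, SE 0.0400, adjusted p = 8.44e-97). Fosb was at 189, 196 and 181 CPM and at 32.8, 30.1 and 29.0 CPM (-2.63, SE 0.0367, adjusted p = 4.91e-107). Fosl1, which encodes the FOS relative FRA1, had 168, 179 and 169.7 CPM against 67.8, 67.2 and 65.8 CPM (-1.36, SE 0.0322). These 3 subunits must pair with a JUN protein to bind DNA. Jun moved from 381 to 388 CPM in WT cells to 182 to 189 CPM in KO cells (-1.05, SE 0.0234), and Junb from 325 to 343 CPM to 142 to 155 CPM (-1.18, SE 0.0441). Neither JUN gene overlapped between the lines.

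Ier2 (ENSMUSG00000053560.6), a small nuclear protein induced by serum, was at 326, 324 and 317 CPM in WT and at 78.9, 74.1 and 79.5 CPM in KO libraries (-2.06, SE 0.0292, adjusted p = 1.27e-97). Dusp1 (ENSMUSG00000024190.8), the phosphatase that switches off JNK, p38 and ERK, was at 119.6, 121 and 119.6 CPM and at 61.3, 57.3 and 59.8 CPM (-1.01, SE 0.0334, adjusted p = 5.82e-61). Both were lower in every KO library. The lines were also separate across treatments. For all 10 genes every one of the 8 WT libraries lay above every one of the 9 KO libraries, as did 19.9% of the genes tested. By the ratio of the lowest WT to the highest KO value Fosl1 came closest, at 156 and 113 CPM.

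Other gene lists moved with the line. The 9 heat shock genes listed as signs of handling include Hspd1 and Hspe1, whose proteins are mitochondrial. They summed to 4676 to 4698 CPM in WT and 4356 to 4538 CPM in KO libraries under DMSO. Of the 7 tested, 4 were lower and none higher, against 37.0% and 36.2% of genes tested. The 6 epithelial markers summed to 23.0 to 25.1 CPM in WT and 14.5 to 16.1 CPM in KO libraries, the 8 fibroblast and endothelial markers to 1649 to 1663 CPM and 3870 to 3897 CPM. Their part in the difference was not tested.

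**Figure D1:**
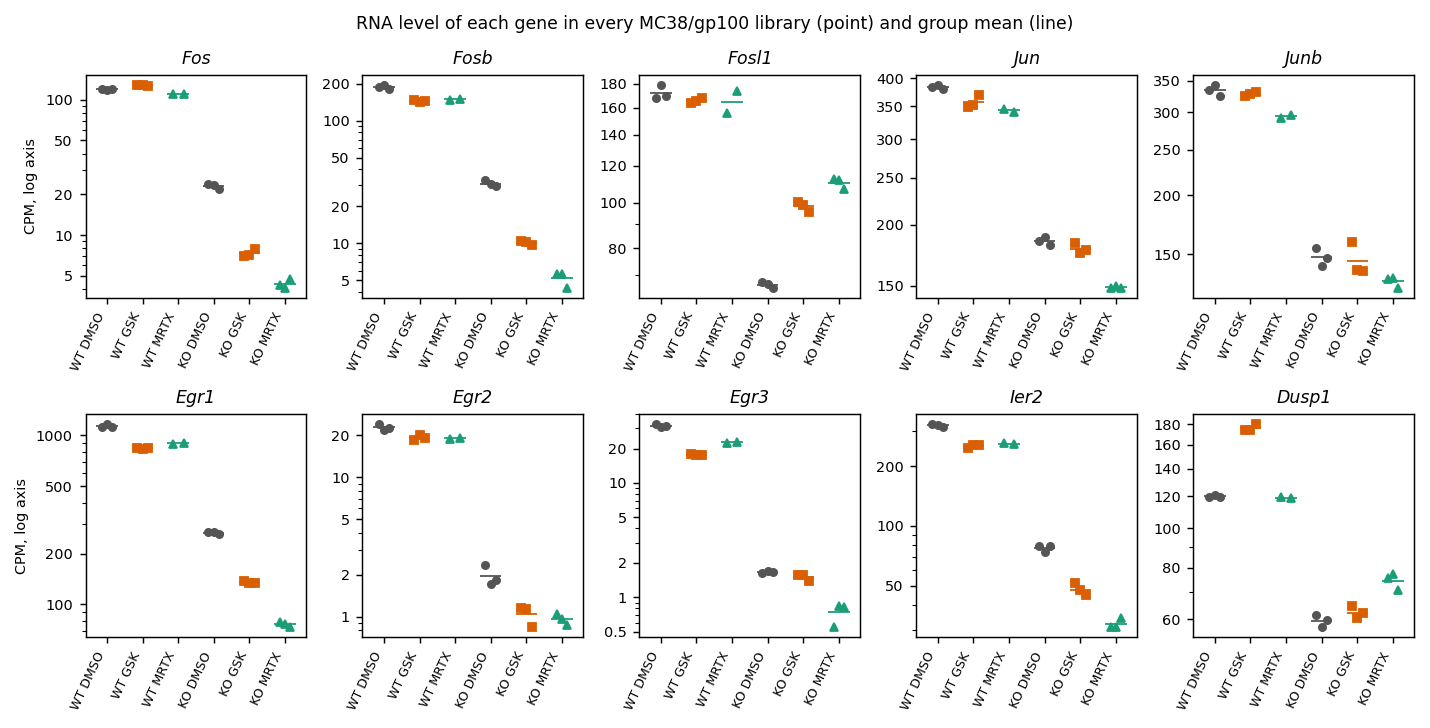
Level of each of the 10 genes in CPM (log axis, with its own range per panel) in every MC38 library, by group, with the group mean as a line. Each WT library lies above each KO library for all 10 genes, and within the KO line the inhibitors lower Fos, Fosb, Egr1 and Ier2 further while Fosl1 is higher.

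In WT MC38 cells the inhibitors made small changes. With GSK3326595, 6 genes fell and 2 rose, against 21.1% and 20.1% of genes tested, and with MRTX1719, 8 fell and none rose, against 3.91% and 3.62%. None changed 2-fold in either direction, as 2.32% and 0.121% of genes did. The same WT DMSO libraries served both comparisons.

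Egr3 showed the largest fall of the 10 with either compound. It stood at 18.0, 17.5 and 17.6 CPM with GSK3326595 and at 22.3 and 22.9 CPM with MRTX1719, all below the 31.0 to 32.8 CPM of DMSO. The log2 fold changes were -0.84 (SE 0.0588, adjusted p = 6.26e-27) and -0.49 (SE 0.0634, adjusted p = 1.13e-09). Egr1 came to 838, 837 and 843 CPM with GSK3326595 (-0.44, SE 0.0192, adjusted p = 7.98e-46) and to 889 and 907 CPM with MRTX1719 (-0.34, SE 0.0216, adjusted p = 1.43e-28). All treated libraries of Egr1 lay below its DMSO libraries, as in 25.4% of genes tested with GSK3326595 and 18.4% with MRTX1719. Egr2 fell by 0.25 (adjusted p = 6.87e-04) and 0.26 on the log2 scale (adjusted p = 0.00846).

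Fosb, at 142 to 146 CPM with GSK3326595 and 148 and 151 CPM with MRTX1719, fell by 0.39 and 0.34 (adjusted p = 1.76e-25 and 1.92e-16). Ier2 fell by 0.35 and 0.31 (adjusted p = 4.81e-25 and 6.76e-17), and Jun by 0.11 and 0.16 (adjusted p = 2.14e-05 and 3.27e-07). Fosl1 passed with neither compound (-0.06 and -0.07, adjusted p = 0.104 and 0.223). Junb was at -0.03 with GSK3326595 (adjusted p = 0.644) and fell by 0.19 with MRTX1719 (adjusted p = 0.0212).

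Fos and Dusp1 stood apart from this downward pattern with GSK3326595. Dusp1 was at 175, 174 and 180.1 CPM with GSK3326595 against 119.6 to 121 CPM with DMSO. It was higher without overlap, as were 24.5% of genes tested (0.56, SE 0.0285, adjusted p = 9.47e-39). With MRTX1719 it was at 119 CPM in both libraries (-0.01, 95% interval -0.08 to 0.05, adjusted p = 0.887). Fos was at 129, 127 and 125 CPM with GSK3326595 (0.09, SE 0.0297, adjusted p = 0.00980) and at 111 and 109 CPM with MRTX1719 (-0.12, SE 0.0338, adjusted p = 0.0138). Both Fos changes were small beside its level.

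Some of these small calls were near the threshold. The rise of Fos did not pass without GSK3326595 replicate 1 (adjusted p = 0.0514). With MRTX1719, leaving out a treated library left 1 sample, assumed to vary like the other groups, and calls over all genes fell from 537 higher and 580 lower to 207 and 226 without replicate 1. The calls of Fos, Junb and Egr2 were lost without treated replicate 1 (adjusted p = 0.108, 0.178 and 0.130), which left 5 of the 8 calls, and without replicate 3 (0.165, 0.105 and 0.0724), where Fosl1 passed instead (0.0177). Junb and Egr2 were also lost without DMSO replicate 1 (adjusted p = 0.0652 and 0.0787), and Junb without DMSO replicate 2 (0.0674). The log2 fold changes moved little in these fits, to between -0.11 and -0.12 for Fos, -0.17 and -0.20 for Junb and -0.22 and -0.27 for Egr2. The heat shock genes summed to 3871 to 3937 CPM with GSK3326595 and 4176 to 4197 CPM with MRTX1719, below DMSO in both. The epithelial markers summed to 39.6 to 41.4 CPM and 25.4 to 25.9 CPM, and the fibroblast and endothelial markers to 1817 to 1825 CPM and 1584 to 1592 CPM. The part of these lists in the changes was not tested.

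In Mtap KO cells the 10 genes split. With GSK3326595, 5 fell and 1 rose, against 25.1% and 27.7% of genes tested, and with MRTX1719, 8 fell and 2 rose, against 33.6% and 37.0%. Fos and Fosb fell at least 2-fold with GSK3326595, where 1.70% of genes did, and Fos, Fosb, Egr1, Egr2, Egr3 and Ier2 with MRTX1719, where 7.48% did. Fosl1 rose with both compounds and Dusp1 with MRTX1719. The median log2 fold change of the 10 genes was -0.43 with GSK3326595 and -1.08 with MRTX1719, beside 0.01 and 0.02 over all genes.

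The FOS subunits Fos and Fosb fell furthest. Fos went from 23.9, 23.5 and 21.8 CPM with DMSO to 7.05, 7.16 and 7.86 CPM with GSK3326595 and 4.30, 4.09 and 4.72 CPM with MRTX1719. Of all genes tested, 26.9% lay wholly below DMSO with GSK3326595, and 34.3% with MRTX1719. The 3 groups of Fos were fully separate. Its log2 fold changes were -1.64 (SE 0.0672, adjusted p = 2.78e-49) and -2.40 (SE 0.0776, adjusted p = 1.20e-61). Fosb went from 32.8, 30.1 and 29.0 CPM to 10.4, 10.2 and 9.62 CPM and to 5.62, 5.67 and 4.34 CPM, again with 3 separate groups. Its changes of -1.60 (SE 0.0605, adjusted p = 4.51e-53) and -2.54 (SE 0.0716, adjusted p = 1.75e-68) ranked 53rd and 50th lowest of the genes tested. With MRTX1719 these 2 genes rested on 303 and 367 counts over 3 libraries.

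Fosl1, of the same family, moved the other way. It rose from 67.8, 67.2 and 65.8 CPM to 101, 98.8 and 95.7 CPM with GSK3326595 (0.56, SE 0.0342, adjusted p = 1.49e-30) and to 113, 112 and 107 CPM with MRTX1719 (0.73, SE 0.0340, adjusted p = 1.59e-41). Even so, no KO library reached the lowest WT library. The JUN genes changed little: Jun was at 176 to 184 CPM with GSK3326595 (-0.05, adjusted p = 0.0639) and at 149, 149.7 and 149 CPM with MRTX1719 (-0.32, SE 0.0254, adjusted p = 2.60e-23). Junb was at 138 to 159 CPM with GSK3326595 (-0.03, adjusted p = 0.679) and at 127 to 133 CPM with MRTX1719 (-0.17, SE 0.0482, adjusted p = 0.00570). Without GSK3326595 replicate 1, Jun and Junb passed as lower (adjusted p = 0.0121 and 0.00273), as did Jun without DMSO replicate 3 (0.0392).

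Egr1 fell in steps, from 269, 268 and 262 CPM with DMSO to 138, 135 and 135 CPM with GSK3326595 and 78.5, 76.6 and 73.5 CPM with MRTX1719. No library of one treatment overlapped another. The log2 fold changes were -0.97 (SE 0.0234, adjusted p = 3.32e-76) and -1.80 (SE 0.0256, adjusted p = 5.56e-106). Ier2 followed the same order, with 78.9, 74.1 and 79.5 CPM, then 51.4, 47.4 and 44.8 CPM, then 30.9, 31.1 and 34.2 CPM (-0.70, SE 0.0362, and -1.28, SE 0.0396).

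Egr2 and Egr3 were already low in KO cells, so their changes are less precise. Egr2 was at 1.15, 1.14 and 0.840 CPM with GSK3326595 and 1.05, 0.957 and 0.868 CPM with MRTX1719, below the 1.70 to 2.36 CPM of DMSO. It fell by 0.89 (SE 0.205, adjusted p = 9.09e-05) and 1.01 (SE 0.213, adjusted p = 1.30e-05). Egr3 was at 1.55, 1.58 and 1.37 CPM with GSK3326595 (-0.15, 95% interval -0.53 to 0.22, adjusted p = 0.526) and at 0.548, 0.847 and 0.820 CPM with MRTX1719 (-1.16, SE 0.230, adjusted p = 3.53e-06). The last value comes from 52 counts over 3 libraries.

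Dusp1 was at 64.4, 60.3 and 62.0 CPM with GSK3326595, overlapping the 57.3 to 61.3 CPM of DMSO (0.07, adjusted p = 0.122). With MRTX1719 it rose to 75.5, 77.4 and 70.6 CPM, above every DMSO library as in 37.9% of genes tested (0.33, SE 0.0359, adjusted p = 2.28e-15). The heat shock genes summed to 4356 to 4538 CPM with DMSO, 4647 to 4801 CPM with GSK3326595 and 5139 to 5208 CPM with MRTX1719. Of the 7 tested, 3 rose and none fell with GSK3326595, against 27.7% and 25.1% of genes tested. With MRTX1719, 6 rose and 1 fell, against 37.0% and 33.6%. The epithelial markers summed to 14.5 to 16.1 CPM with DMSO, 60.0 to 62.6 CPM with GSK3326595 and 59.5 to 61.0 CPM with MRTX1719. The fibroblast and endothelial markers summed to 3648 to 3793 CPM and 2876 to 2938 CPM, and the part of these lists in the changes was not tested.

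**Figure D2:**
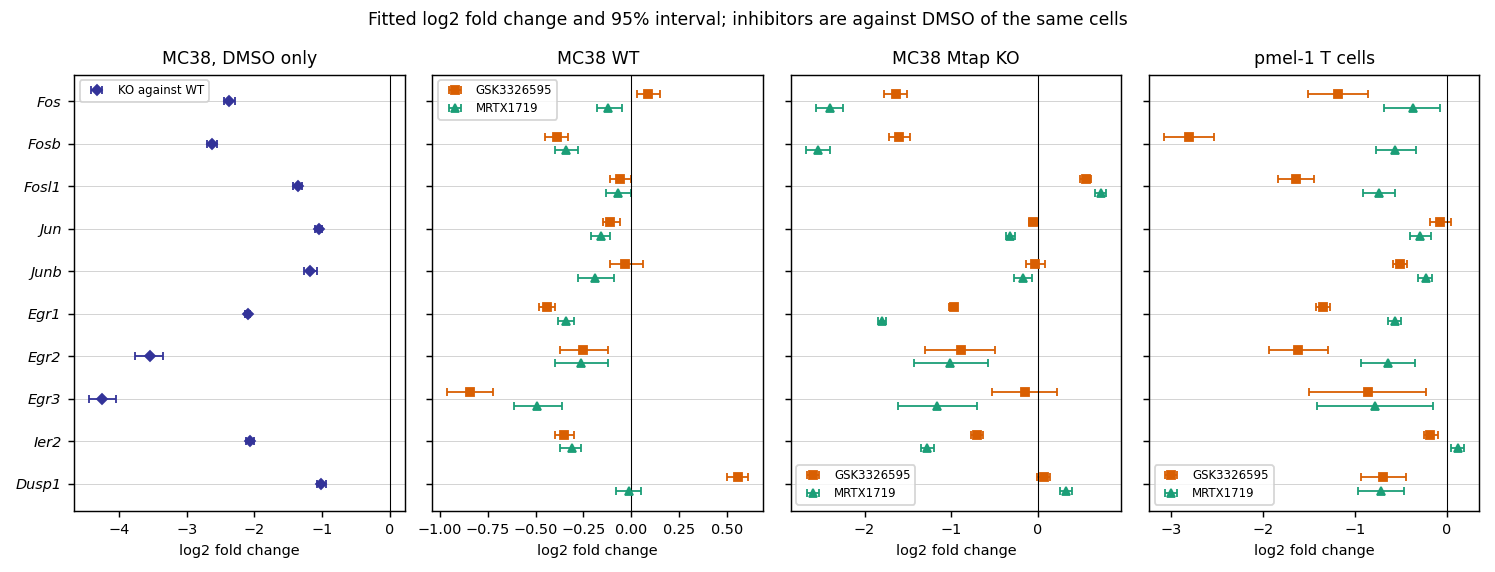
Fitted log2 fold change (x axis) of each of the 10 genes with its 95% interval, for KO against WT under DMSO and for each inhibitor against DMSO in WT cells, KO cells and T cells; each panel has its own scale. Fos and Fosb lie near -2.5 with MRTX1719 in KO cells, while Fosl1 lies above 0 there and below 0 in T cells.

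Whether an inhibitor acted differently in the 2 lines was tested as the difference of its log2 fold changes, KO minus WT. With GSK3326595 this difference passed for 8 of the 10 genes and 42.2% of genes tested, 6 lower and 2 higher in KO cells, against 20.2% and 22.0%. With MRTX1719 it passed for 9 and for 58.2% of genes tested, 7 lower and 2 higher, against 27.9% and 30.3%. Junb passed with neither compound (0.00, 95% interval -0.13 to 0.13, and 0.02, -0.12 to 0.16) and Jun only with MRTX1719 (-0.15, adjusted p = 6.84e-05).

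Fos and Fosb had the largest differences. For Fos it was -1.73 (SE 0.0737, adjusted p = 7.17e-47) with GSK3326595 and -2.29 (SE 0.0862, adjusted p = 2.50e-53) with MRTX1719. Fosb had -1.21 (SE 0.0677) and -2.20 (SE 0.0805). Both genes thus had the more negative change in the line with the lower level. Egr1 had -0.53 (SE 0.0303) and -1.46 (SE 0.0334), and Ier2 -0.35 (SE 0.0441) and -0.96 (SE 0.0488), so these 4 genes shared the direction with both compounds.

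The difference for Fosl1 was positive with both compounds (0.61, SE 0.0443, and 0.79, SE 0.0464), since it rose in KO cells and did not pass in WT cells. Dusp1 and Egr3 changed sign between compounds. For Dusp1 the difference was -0.49 (SE 0.0463, adjusted p = 7.87e-18) with GSK3326595, which raised it in WT cells, and 0.34 (SE 0.0489, adjusted p = 4.59e-10) with MRTX1719, which raised it in KO cells. Egr3 had 0.69 (SE 0.201, adjusted p = 0.00292) with GSK3326595 and -0.67 (SE 0.241, adjusted p = 0.0125) with MRTX1719. With GSK3326595 it fell in WT cells (-0.84) and did not pass in KO cells (-0.15, 95% interval -0.53 to 0.22). Its KO levels were low, with 114 counts over the DMSO libraries and 52 over those with MRTX1719. Egr2 had -0.64 (SE 0.215, adjusted p = 0.00988) and -0.74 (SE 0.226, adjusted p = 0.00283). The GSK3326595 difference of Egr2 did not pass without KO DMSO replicate 1 (adjusted p = 0.0689) or KO GSK3326595 replicate 3 (0.0741), nor did the MRTX1719 difference of Egr3 without KO MRTX1719 replicate 1 (0.0909).

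The compounds were then set directly against each other at the same dose and time. In KO cells 7 genes were lower and 2 higher with MRTX1719 than with GSK3326595, against 24.9% and 28.3% of genes tested. Egr3 (-1.01, SE 0.231), Fosb (-0.94, SE 0.0899), Egr1 (-0.83, SE 0.0271), Fos (-0.76, SE 0.0985) and Ier2 (-0.58, SE 0.0422) were the lowest. Fosl1 (0.17, SE 0.0317) and Dusp1 (0.26, SE 0.0350) were higher. Egr2 was not distinguished, with an interval of -0.59 to 0.36, and the call of Junb (-0.14, adjusted p = 0.0201) did not pass without MRTX1719 replicate 3 (0.0692).

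In WT cells 3 genes were lower and 2 higher with MRTX1719 than with GSK3326595, against 14.6% and 15.4% of genes tested. Dusp1 differed most (-0.57, SE 0.0319, adjusted p = 8.69e-35), followed by Egr3 (0.35, SE 0.0681, adjusted p = 1.02e-05) and Fos (-0.21, SE 0.0334, adjusted p = 1.11e-07). Egr1 was higher by 0.10 (adjusted p = 1.12e-04). Fosb, Fosl1, Jun, Egr2 and Ier2 did not pass, with intervals that lie within -0.16 and 0.13. The call of Junb (-0.16, adjusted p = 0.0155) was lost without GSK3326595 replicate 3 (0.0501), MRTX1719 replicate 1 (0.108) or MRTX1719 replicate 3 (0.0597), where omitting either of the last leaves 1 MRTX1719 library, and Jun passed as lower without GSK3326595 replicate 1 (0.0449).

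**Figure D3:**
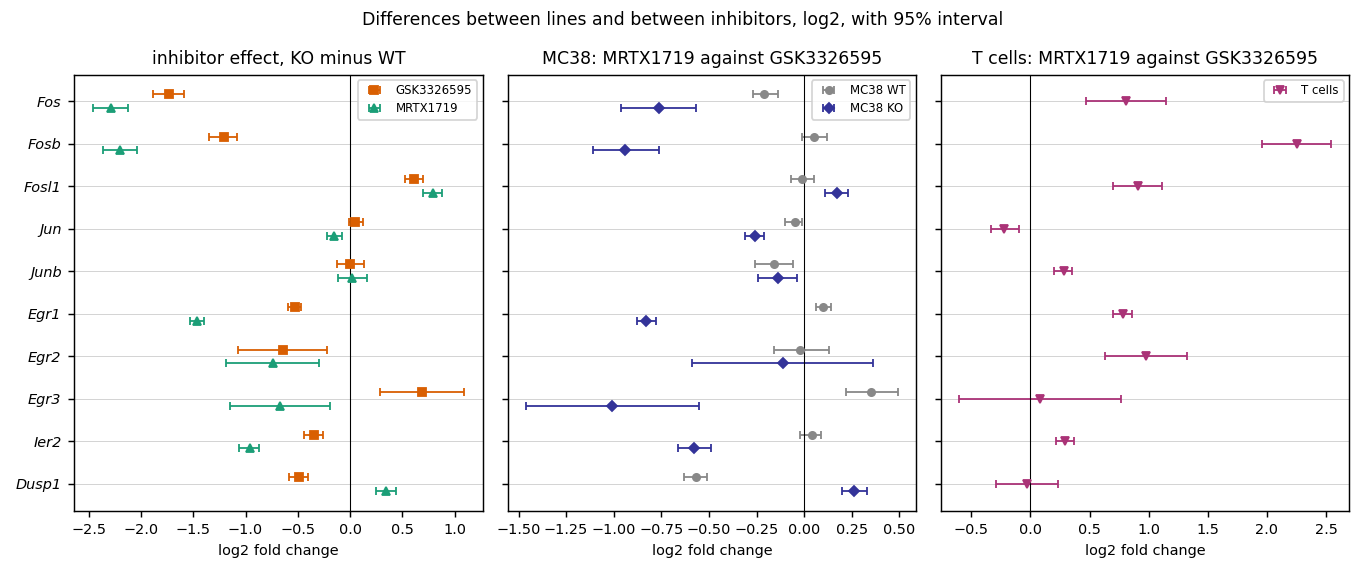
Left, the KO minus WT difference of each inhibitor's log2 fold change; middle and right, MRTX1719 against GSK3326595 in the 2 MC38 lines and in T cells, each with its 95% interval. In KO cells most of the 10 genes are lower with MRTX1719, in T cells most are higher with MRTX1719 than with GSK3326595.

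In pmel-1 T cells both inhibitors lowered nearly all of the 10 genes. With GSK3326595, 9 fell and none rose, against 26.2% and 26.6% of genes tested, and with MRTX1719, 9 fell and 1 rose, against 18.5% and 18.9%. Fos, Fosb, Fosl1, Egr1 and Egr2 fell at least 2-fold with GSK3326595, where 3.51% of genes did, and none did with MRTX1719, where 1.37% did. The median of the 10 genes was -1.02 and -0.56 on the log2 scale, beside 0.00 over all genes in both. No test compared T cells with MC38 cells, since each table had its own fit.

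Fosb had the largest fall of the 10 with GSK3326595, but not with MRTX1719. It was at 15.9, 15.6 and 17.3 CPM with DMSO, 2.51, 1.94 and 2.45 CPM with GSK3326595 and 13.0, 9.72 and 10.8 CPM with MRTX1719. Of all genes tested, 29.1% lay wholly below DMSO with GSK3326595, and 22.9% with MRTX1719. The 3 groups of Fosb did not overlap. Its log2 fold change with GSK3326595, -2.81 (SE 0.140, adjusted p = 1.51e-32), was the 12th lowest of 13753, and with MRTX1719 it fell by 0.56 (SE 0.109, adjusted p = 1.47e-05). Fosl1, which rose in KO tumour cells, fell here, from 23.8, 25.7 and 26.8 CPM to 6.85, 8.0 and 9.49 CPM with GSK3326595 and 14.1, 15 and 16.3 CPM with MRTX1719 (-1.64, SE 0.0981, and -0.74, SE 0.0898). Its groups were separate as well.

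Fos was low in T cells, at 8.29, 5.96 and 6.61 CPM with DMSO, 3.53, 2.97 and 2.75 CPM with GSK3326595 and 5.73, 5.07 and 5.48 CPM with MRTX1719. It fell by 1.18 with GSK3326595 (SE 0.165, adjusted p = 1.48e-09). With MRTX1719 the fall of 0.37 was near the threshold (SE 0.152, adjusted p = 0.0444). Jun was at 55.5 to 66.6 CPM with GSK3326595, around the 61.2 to 65.2 CPM of DMSO (-0.07, adjusted p = 0.310), and at 48.7, 56.6 and 51.0 CPM with MRTX1719 (-0.29, SE 0.0570, adjusted p = 3.13e-05). Junb, of the JUN genes, fell with both: 252, 247 and 272 CPM with DMSO became 185, 183 and 174 CPM (-0.51, SE 0.0381) and 219, 218 and 220.1 CPM (-0.23, SE 0.0378).

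Among the EGR genes, which T cell receptor signalling induces, Egr1 was the most precisely measured. It stood at 259, 265 and 265 CPM with DMSO, 102, 104 and 104 CPM with GSK3326595 and 178, 175 and 178 CPM with MRTX1719, in 3 separate groups. The log2 fold changes were -1.35 (SE 0.0386, adjusted p = 3.15e-50) and -0.57 (SE 0.0371, adjusted p = 3.68e-24). Egr2 went from 8.08, 7.88 and 8.85 CPM to 2.81, 2.90 and 2.40 CPM and to 6.38, 4.66 and 5.04 CPM (-1.62, SE 0.163, and -0.64, SE 0.148). Egr3 was low, with 88, 54 and 53 counts per group. It fell by 0.86 with GSK3326595 (SE 0.318, adjusted p = 0.0169) and by 0.78 with MRTX1719 (SE 0.319, adjusted p = 0.0452).

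Dusp1 went from 10.3, 14.3 and 11 CPM to 7.52, 7.49 and 6.94 CPM with GSK3326595 and 7.39, 6.58 and 7.46 CPM with MRTX1719, falling with both (-0.69, SE 0.123, and -0.72, SE 0.125). Ier2 fell by 0.18 with GSK3326595 (adjusted p = 5.53e-05) and rose by 0.12 with MRTX1719 (adjusted p = 0.0123), the only one of the 10 to rise in T cells. Its values were 175, 174 and 184 CPM with DMSO, 161, 156 and 156 CPM with GSK3326595 and 189.9, 189 and 199 CPM with MRTX1719.

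Several calls in T cells were near the threshold. With MRTX1719, the call of Egr3 was lost without any 1 of the 6 libraries compared (adjusted p = 0.0566 to 0.202), and with DESeq2 (0.0908). That of Fos was lost with DESeq2 (adjusted p = 0.113) and without DMSO replicate 1 (log2 fold change -0.22, adjusted p = 0.381) or 3 (0.0600), or MRTX1719 replicate 1 (0.0641), 2 (0.147) or 3 (0.0965). The rise of Ier2 did not pass without DMSO replicate 1 (0.0713) or 2 (0.0562) or MRTX1719 replicate 3 (0.0800). With GSK3326595, Egr3 did not pass without DMSO replicate 3 (0.104) or GSK3326595 replicate 2 (0.105), and Jun passed as lower without GSK3326595 replicate 1 (0.0430).

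Directly compared in T cells, MRTX1719 left more of these RNAs than GSK3326595 at the same dose: 7 genes were higher and 1 lower, against 19.3% and 19.7% of genes tested. Fosb was 4.76-fold higher (2.25, SE 0.148, adjusted p = 2.22e-24), the 12th highest of 13753. Egr2 (0.98, SE 0.173), Fosl1 (0.91, SE 0.105), Fos (0.81, SE 0.171) and Egr1 (0.78, SE 0.0392) followed, then Ier2 (0.29) and Junb (0.28). Jun was lower by 0.22 with MRTX1719 (adjusted p = 0.00127), although its groups overlapped and the call was lost without GSK3326595 replicate 1 (0.0651). Dusp1 and Egr3 did not pass (-0.03, 95% interval -0.29 to 0.23, and 0.08, -0.60 to 0.77). In KO tumour cells the order of the compounds was the reverse for Fos, Fosb, Egr1 and Ier2, each of which was lower with MRTX1719 there.

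**Figure D4:**
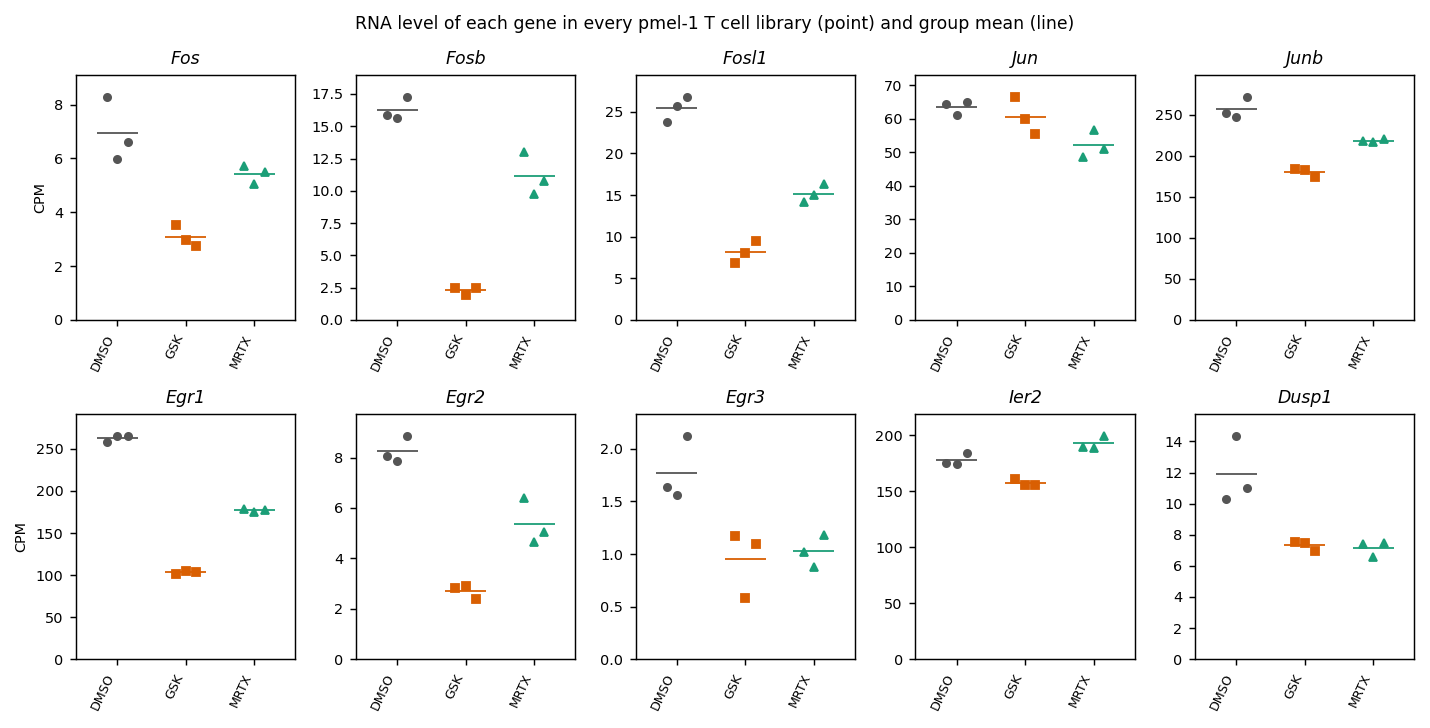
Level of each of the 10 genes in CPM (linear axis from 0, own range per panel) in every T cell library with DMSO, GSK3326595 or MRTX1719, with the group mean as a line. Fosb, Fosl1, Egr1 and Egr2 are lowest with GSK3326595 and intermediate with MRTX1719, in groups that do not overlap. Of all genes tested, 29.1% lie wholly below DMSO with GSK3326595, and 22.9% with MRTX1719.

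In T cells the 9 heat shock genes summed to 5541 to 5799 CPM with DMSO, 5082 to 5179 CPM with GSK3326595 and 5865 to 6063 CPM with MRTX1719. The 9 T cell markers summed to 4091 to 4128, 5513 to 5529 and 4562 to 4656 CPM. Markers of B cells (3.27 to 6.84 CPM), myeloid cells (6.35 to 10.8 CPM) and NK cells (4.97 to 9.67 CPM) stayed low, with Ms4a1, Lyz2 and Ncr1 at 0 counts in all 3 groups. Fibroblast and endothelial markers summed to 26.5 to 30.4 CPM with DMSO, 42.8 to 51.8 CPM with GSK3326595 and 23.5 to 28.1 CPM with MRTX1719. Epithelial markers summed to 3.91 to 4.55, 6.85 to 8.20 and 6.11 to 7.85 CPM. The 2 tested rose with each compound, against 26.6% and 18.9% of genes tested. The part of these lists in the changes was not tested.

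The neighbours of the 10 genes in the pathway did not all follow them. Of all genes tested, 37.0% were lower and 36.2% higher in the KO line, and the shares given above for each inhibitor are the background of the counts that follow. The genes named are among those with the smallest adjusted p of their list, not the largest change. Of 12 other AP-1 and bZIP genes tested in MC38 cells, 9 were lower and 2 higher in the KO line, with the smallest adjusted p for the stress-induced Atf3 (-2.94, SE 0.0520) and the small MAF gene Mafk (-1.84, SE 0.0441). With MRTX1719 in KO cells 9 of the 12 rose and none fell, including Atf3 (0.92), Mafg (0.64), Maff (0.55) and Mafk (0.51), opposite to Fos and Fosb, and 5 rose and none fell with GSK3326595. In WT cells 3 fell with either compound, and 1 rose with GSK3326595. In T cells 9 of 11 fell and none rose with either compound. Batf3, an AP-1 partner of JUN proteins in lymphocytes, fell by 2.43 and Atf3 by 1.72 with GSK3326595, and Fosl2 fell by 0.58 with MRTX1719.

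Of 23 other immediate early genes, 19 were lower and 2 higher in the KO line, among them Btg2 (-3.61), Csrnp1 (-3.49) and the nuclear receptor gene Nr4a1 (-2.91). In KO cells they then split, 11 lower and 10 higher with GSK3326595, against 25.1% and 27.7% of all genes, and 8 lower and 10 higher with MRTX1719, against 33.6% and 37.0%. The latter counts are near the background. Rhob (-0.77) and Klf4 (-0.62) fell with MRTX1719, while Plk2 (0.52) and Klf6 (0.39) rose. In WT cells 7 fell and 7 rose with GSK3326595, and 10 fell and none rose with MRTX1719. In T cells 12 of 22 fell with either compound, and 3 rose with GSK3326595 and none with MRTX1719. Sgk1 (-1.25), Plk3 (-0.92) and Csrnp1 (-0.92) were among those that fell with GSK3326595.

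ERK feedback and output genes, which report on ERK signalling, had 7 lower and 5 higher of 14 in the KO line. With MRTX1719 in KO cells 9 fell and 4 rose, with the ERK inhibitors Spry1 (-1.77), Spry2 (-1.11) and Spry4 (-0.62) lower and the ERK phosphatase gene Dusp4 (0.80) higher. GSK3326595 gave 6 lower and 6 higher in KO cells, and 3 lower and 4 higher in WT cells. MRTX1719 in WT cells gave 1 lower and none higher. In T cells 10 of 13 fell and none rose with GSK3326595, among them Etv4 (-1.42) and Spred1 (-1.05), and 5 fell with MRTX1719. Of the 7 other dual specificity phosphatase genes, which like Dusp1 switch off MAP kinases, 6 were lower and none higher in the KO line. In KO cells 6 rose and none fell with each compound, among them Dusp8 (1.3 with MRTX1719), Dusp16 (1.09) and Dusp10 (1.05).

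Upstream factors moved both ways. Of 11 SRF, TCF and CREB genes, 5 were lower and 3 higher in the KO line, and 7 rose and none fell with MRTX1719 in KO cells, the SRF coactivator gene Mrtfa by 0.65. In T cells 2 fell with GSK3326595, and 3 fell and 1 rose with MRTX1719. Of 19 MAP kinase pathway genes, 12 were lower and 5 higher in the KO line, against 37.0% and 36.2% of all genes tested. With MRTX1719 in KO cells 11 rose and 5 fell, against 37.0% and 33.6%, with the RAF kinase gene Araf at -1.21 and Map2k3 at 0.64. The median log2 fold changes of both lists in these comparisons lay between -0.14 and 0.13.

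Genes known as AP-1 targets in tumours had 13 lower and none higher of 16 in the KO line, including the growth factor genes Ereg (-2.38) and Hbegf (-2.09), Plaur (-1.33) and Cd44 (-1.06). In KO cells 11 rose with either compound and 2 fell with GSK3326595 and 3 with MRTX1719. With MRTX1719 the stromelysin gene Mmp10 rose by 3.29, Cd44 by 1.15, Plaur by 0.81 and Plau by 0.73. In WT cells 9 of the 16 rose and 6 fell with GSK3326595, and 1 rose and 1 fell with MRTX1719. A link of these genes to the changes of Fosl1, Fos or Fosb was not tested. In T cells, of 14 genes of activation and EGR output, 7 fell and 3 rose with GSK3326595, against 26.2% and 26.6% of all genes, and 6 fell and 2 rose with MRTX1719, against 18.5% and 18.9%. Tnf (-0.88), the costimulatory receptor gene Tnfrsf9 (-0.82) and the IL-2 receptor gene Il2ra (-0.50) fell with GSK3326595, and Dgka, which dampens T cell receptor signalling, rose by 0.70. Nab1 and Nab2, corepressors of EGR proteins, moved in opposite directions in T cells (0.23 and -0.45 with GSK3326595, 0.27 and -0.29 with MRTX1719).

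**Figure D5:**
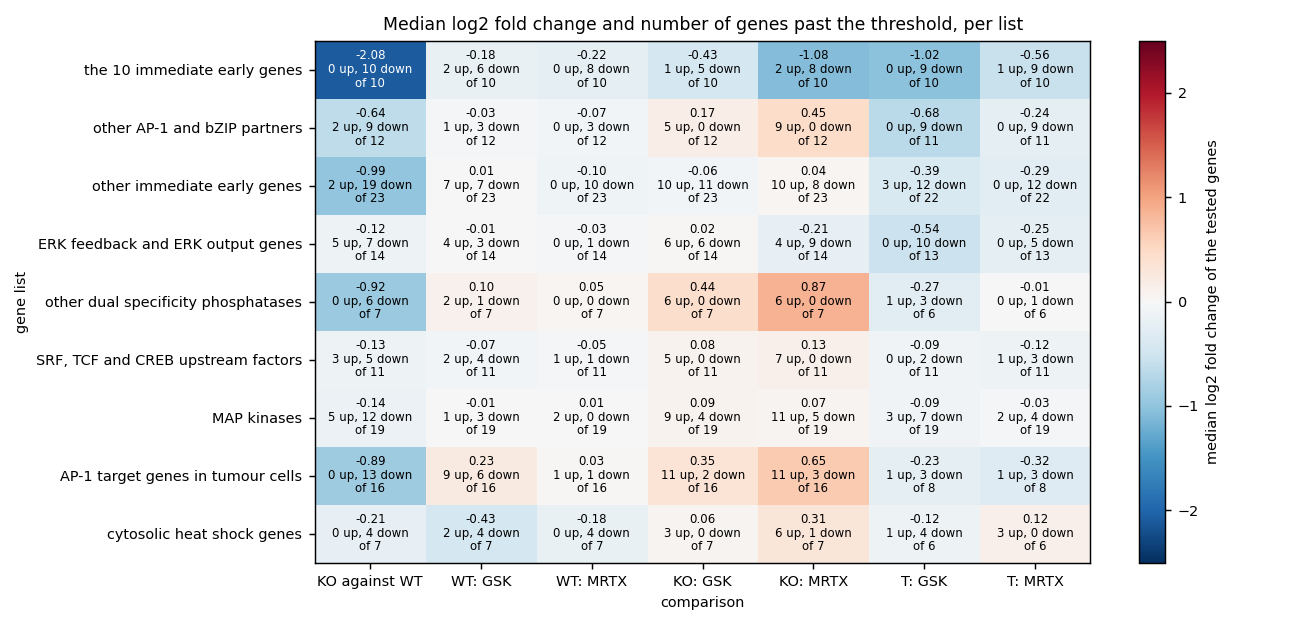
Median log2 fold change (colour and first number) of the tested genes of each list in 7 comparisons, with the number called higher (up) and lower (down) and the number tested. The top row is the 10 genes, at -2.08 for KO against WT, and the other AP-1 genes and dual specificity phosphatases turn positive with the inhibitors in KO cells. The row labelled cytosolic heat shock genes includes the mitochondrial Hspd1 and Hspe1.

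The genes whose levels ran most like those of the 10 were sought as a description, by Pearson r of log2 CPM with genes at a mean of 10 CPM or more. Over the 17 MC38 libraries, which fall into 6 groups and 2 lines, the nearest of 9220 genes to Fos were Snhg12 (r = 0.9962), Angptl6, Ccnl1, Pspc1 and Dus4l. Egr1 was nearest to Hnrnpdl (r = 0.9973), Rplp0, Ccnl1, Ifrd2 and Zranb2, sharing Ccnl1 with Fos. Fosl1 had a different set, led by Nt5dc3 (r = 0.9918), Lrrfip1 and the kinase gene Pim1, followed by Mras. Over the 9 T cell libraries, the nearest of 8154 genes to Egr1 were Wnt10b (r = 0.9989), Scd2, Ceacam16, Gm42047 and Ogt, and to Junb they were Pstpip1 (r = 0.9921), Dot1l, Aim2, Vars and Pus10. The libraries of a group share their treatment and line, and r says nothing of shared control.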

How the data were processed

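The 26 libraries comprised 17 of MC38 cells and 9 of T cells, from poly(A) RNA prepared with a directional kit per the labels' protocols. TopHat2 2.0.10, Bowtie2 2.1.0, DESeq 1.18.0 and GRCm39 are named in the submitters' processing notes. Not given in the sources used here are the counting program, annotation and strand setting. The deposited raw counts per gene identifier, whole numbers, were tested. The authors' deposited normalized counts, a signal scaled by a size factor per library, were used only to pair identifiers with symbols: 15629 of 15629 MC38 and 15287 of 15300 T cell entries matched 1 identifier within 0.001 counts.

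MC38 and T cell counts were fitted separately, over the groups of each table, with edgeR 4.0.16 in R 4.3.3 (filter by group, TMM scaling, robust quasi-likelihood F test, common biological coefficient of variation 0.0198 and 0.0372). P-values were adjusted by Benjamini-Hochberg over all genes tested, within each of 12 comparisons, with a threshold of 0.05. A standard error is the log2 fold change divided by the square root of F, and intervals are 95%. CPM uses TMM-scaled library sizes. Libraries within a group varied beyond sampling noise (chi-square per gene 1.4 to 3.75), and each counts as 1 sample. The code was tested on simulated data.

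The 10 genes and the other lists were chosen with earlier results of these data known. All 10 are described in each comparison; of each other list at most the 4 genes with the smallest adjusted p among those called are named, and the most alike genes are the 5 with the highest Pearson r (prior count 1), of which 1 is not reported here. Same-numbered replicates did not deviate together (r between -0.16 and 0.08), so numbers were not taken as pairs. Alternatives were DESeq2 1.42.0, its size factors in edgeR, no low-count filter, only the compared groups, a replicate block, and leaving out each library. Promoter windows are RefSeq's on GRCm38.p6, another build than the counts, and serve only to show sequence.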

Additional observations from a re-analysis of the deposited data

Results flagged for a closer look

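The effect of an inhibitor differed between the KO and WT lines for the genes below, each by a test of the difference itself, as log2 fold change in KO minus that in WT (edgeR, adjusted over all genes tested). With GSK3326595 the difference was -1.73 for Fos, -1.21 for Fosb, -0.64 for Egr2, -0.53 for Egr1, -0.49 for Dusp1 and -0.35 for Ier2, and it was 0.61 for Fosl1 and 0.69 for Egr3. With MRTX1719 it was -2.29 for Fos, -2.20 for Fosb, -1.46 for Egr1, -0.96 for Ier2, -0.74 for Egr2, -0.67 for Egr3 and -0.15 for Jun, and it was 0.79 for Fosl1 and 0.34 for Dusp1. Of all genes tested, 42.2% differed between the lines with GSK3326595 and 58.2% with MRTX1719, so a difference in itself does not set these genes apart.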

How the results depend on the processing

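Among values of the 10 genes recomputed under the alternatives, none that was called in either fit reversed direction. Direction was not checked where neither fit called the gene. Of the 1408 values, 1362 kept their call of higher, lower or none. Of the others, 34 were lost and 6 gained on leaving out 1 library, 2 were lost with DESeq2, 2 without the low-count filter and 1 with the replicate block, and 1 was gained when only the compared groups were fitted. Without WT MRTX1719 replicate 1, which leaves 1 library in that group, 5 genes passed in WT cells with MRTX1719 in place of 8. Leaving out each library in turn, the genes called numbered 10 in KO against WT and in KO cells with MRTX1719, 7 to 8 in WT cells with GSK3326595, 5 to 8 in WT cells with MRTX1719 and 6 to 8 in KO cells with GSK3326595. They numbered 7 to 8 and 8 to 9 for the KO minus WT differences with GSK3326595 and MRTX1719, 4 to 6 and 8 to 9 for the compounds compared in WT and KO cells, 8 to 10 and 7 to 8 in T cells with GSK3326595 and MRTX1719, and 7 to 8 for the compounds compared in T cells.

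With the replicate block, Fos in T cells with MRTX1719 had a log2 fold change of -0.35 (adjusted p = 0.0586), and the numbers of genes called stayed within 1.5 times those without it. Same-numbered samples did not pair by their deviations. Without the low-count filter, Fos and Egr3 in T cells with MRTX1719 had adjusted p = 0.120 and 0.111. DESeq2 gave no adjusted p for 2 of the 120 values. Low counts limit Egr2 and Egr3 in KO cells and Egr3 in T cells.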
